A study of Mus musculus with 6 samples.

Results

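The 33 genes described here form the interferon response and nucleic acid sensing module of mouse kidney mesenchyme and endothelium. They were taken by name, with no measured value in the rule, although earlier results of these data were known when they were chosen. All 33 were present among the 23998 gene symbols of every deposited count table. By role they comprise 3 receptor chains, 4 nucleic acid sensors and adaptors, 4 transcription factors, 14 antiviral effectors and feedback genes, 4 guanylate-binding proteins and 4 antigen processing genes. The series profiled single cells sorted from enzymatically digested kidney into plates and sequenced with Smart-seq2, a method that reads whole transcripts of 1 cell per well. Each of 6 plates held cells of 3 mice: 1 healthy, 1 at day 2 and 1 at day 10 of UUO (unilateral ureteric obstruction), in which 1 ureter is tied off and the kidney behind it is injured and becomes fibrotic. Wells carry a mesenchyme or an endothelia label, named gates here, and the surface markers behind the gates, the strain, the sex and the age are not given in the sources used here. A number from 1 to 4 in the well labels was assumed to stand for the animal, which the labels do not state, so the groups are healthy, day 2 and day 10 in each gate with n = 4 sums of wells. The labels name no transgene and no added agent, but the count tables hold an entry for eGFP (a fluorescent reporter), which had 272 to 755 CPM in the 12 mesenchyme sums and 2.22 to 29.6 CPM in the 12 endothelia sums. The gene or promoter that drives it is not given in the sources used here.

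Type I interferons signal through a receptor of the chains Ifnar1 and Ifnar2, and interferon gamma through a receptor that includes Ifngr1. The type I receptor activates a complex that includes Stat2 and Irf9 and binds the interferon-stimulated response element in the promoters of interferon-stimulated genes. Cells also make interferon themselves when nucleic acids are sensed in the cytosol, RNA by the helicases of Ddx58 (RIG-I) and Ifih1 (MDA5), and DNA through cyclic dinucleotides that activate the adaptor STING, encoded by Tmem173. In endothelium many of these genes are read at a basal level without infection.

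Of 2292 sorted wells, 2235 held at least 1000 genes and 20000 reads on genes and were kept, from 364 to 381 per gate and condition. Reads were summed per gate, condition and number, giving 24 sums of 19382742 to 56326210 reads. Levels are CPM (reads of a gene relative to all reads of a sum, on 1 common TMM scale), are listed in the order of numbers 1 to 4, and are not corrected for gene length, so levels are compared between groups and not between genes. Summed CPM of 10 endothelial marker genes ranged from 19735 to 26981 in the endothelia gate and from 633 to 1137 in the mesenchyme gate, and 10 mesenchymal markers ranged from 22616 to 40485 in the mesenchyme gate and from 29.0 to 929 in the endothelia gate. Of 15 leukocyte markers, 14 or 15 had reads in each group, summing to between 6.05 and 232 CPM, and Ptprc reached 10 CPM in 2 to 6 wells per group. Members of the Ifit, Gbp, Oas and Mx families can share reads with close relatives, and Ifit1, Ifi27 and Stat2 overlap the annotated genes Ifit1bl1, Ifi27l2a and Apof, so their values are less certain. Each condition and gate occupied the same 4 columns on every plate, so condition and plate columns cannot be told apart.

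The promoters of the module are shown first because some of them hold a core of the element through which the receptor acts. Of the 33 genes, 25 had an entry in the RefSeq promoter table (build GRCm38.p6), and the 250 bases before each start were searched on both strands for GAAA, any 2 bases and GAAA, a core of the interferon-stimulated response element. The core was in the windows of 10 of the 25 genes, against 3.46% of all 27025 genes in the table (2.98% of its 32851 windows). The windows below show the core in capitals, read 5′ to 3′ on the strand of the gene.
Rsad2, chr12:26456548-26456587, minus strand: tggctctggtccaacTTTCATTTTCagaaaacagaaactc
Ifit1, chr19:34640770-34640828, plus strand: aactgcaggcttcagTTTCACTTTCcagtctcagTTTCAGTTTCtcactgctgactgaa
Ifit3, chr19:34583358-34583431, plus strand: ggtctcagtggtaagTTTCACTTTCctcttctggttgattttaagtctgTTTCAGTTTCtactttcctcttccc
Isg15, chr4:156200860-156200911, minus strand: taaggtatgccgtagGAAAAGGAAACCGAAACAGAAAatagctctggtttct
Oas1a, chr5:120907526-120907560, minus strand: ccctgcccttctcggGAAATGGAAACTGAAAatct
Stat2, chr10:128270261-128270300, plus strand: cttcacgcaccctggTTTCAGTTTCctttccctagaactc
Gbp2, chr3:142620589-142620628, plus strand: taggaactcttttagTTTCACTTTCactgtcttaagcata
Gbp3, chr3:142559984-142560029, plus strand: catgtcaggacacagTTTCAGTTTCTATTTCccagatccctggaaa
Gbp7, chr3:142530268-142530307, plus strand: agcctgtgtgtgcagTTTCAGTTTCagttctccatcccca
The Isg15 window held 3 overlapping copies, Ifit1 and Ifit3 each held a pair of separate copies, and Rsad2, Stat2, Gbp2 and Gbp7 each held 1. The core of Oas1a ended 4 bases before the start and that of Stat2 212 bases before it. Starts are those of the promoter table. For Oas1a and Ifit3 the annotated gene begins upstream of that start, so their cores lie mostly or wholly within the annotated gene. Bst2 was the other gene with the core, and Cmpk2, Irf7 and Ifi44 had none of these letters in their windows.

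The second motif was TTCNNNGAA, a core of the gamma-activated sequence of interferon gamma target genes, which reads the same on both strands. It was in the windows of 7 of the 25 genes (Bst2, Gbp7, Ifit2, Ifnar2, Irf1, Oas1a and Psmb8), against 8.13% of all genes in the table, and it overlapped the first core in 1 of the members' windows. Irf1, a transcription factor induced by interferon gamma, is shown as the example, with the core in capitals 81 bases before its start.
Irf1, chr11:53769909-53769947, plus strand: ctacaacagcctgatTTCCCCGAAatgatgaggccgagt

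In healthy kidneys 30 of the 33 genes were lower in the mesenchyme gate than in the endothelia gate, and none was higher. This comparison asks how the resting levels of the module differ between these cell classes. The call used edgeR's quasi-likelihood test with Benjamini-Hochberg adjustment over all 16116 genes and a threshold of 0.05, by which 12.7% of all genes were lower and 11.3% higher in mesenchyme. The median log2 difference was -2.43 over the 33 genes and -0.05 over all genes tested. Overlap of the sums between these gates is given per gene only as a description. The share of all genes without such overlap was not computed.

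**Figure D1:**
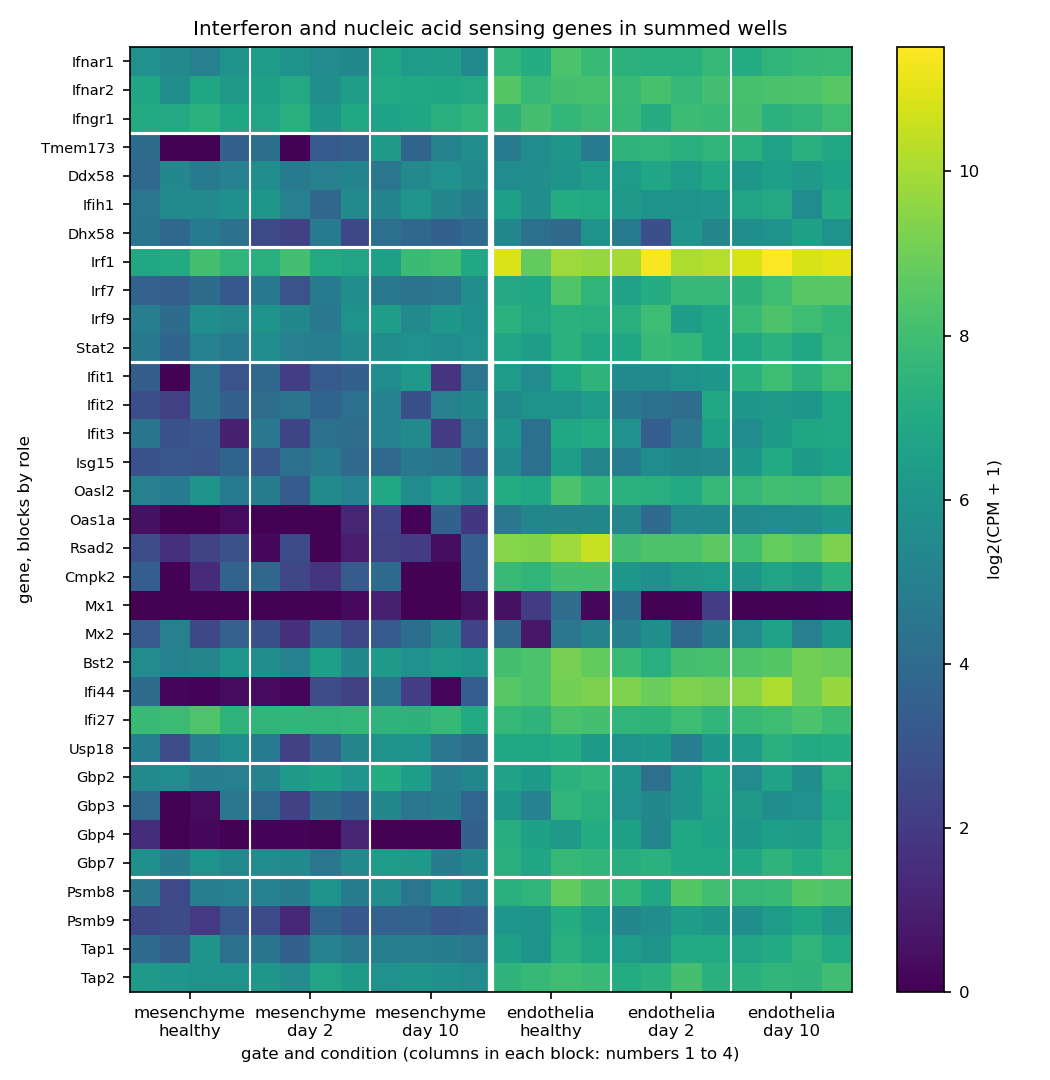
Level of each of the 33 genes (rows, in blocks by role) in the 24 sums (columns, 4 per gate and condition), as log2(CPM + 1) with the colour scale at the right. The 12 endothelia columns are brighter than the 12 mesenchyme columns for most genes, while Ifi27 is alike in both, with healthy means of 237 and 240.3 CPM.

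All 3 receptor chains were lower in mesenchyme. Ifnar1, a chain of the type I receptor, was at 192, 139.7, 308 and 224 CPM in the endothelia gate and 55.99, 41.8, 31.2 and 57.5 in the mesenchyme gate, a log2 difference of -2.22 ± 0.30 (adjusted p = 1.57e-05). Ifnar2, its partner chain, was at 360.4, 207, 273 and 285 CPM in the endothelia gate and 111, 52.99, 110.2 and 71.4 in the mesenchyme gate, a log2 difference of -1.71 ± 0.25 (adjusted p = 3.8e-05). For neither chain did the gates overlap. Ifngr1, the ligand-binding chain of the interferon gamma receptor, was at 175, 281, 198 and 234 CPM in the endothelia gate and 132, 124, 163 and 112 in the mesenchyme gate, a log2 difference of -0.75 ± 0.26 (adjusted p = 0.0441), the smallest of the 30 differences. Its gates did not overlap either, and its call was lost in 7 of 12 alternatives, among them without number 1, 2 or 4 (adjusted p of 0.0852, 0.148 and 0.205).

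Of the 4 sensors and adaptors, 3 were lower in mesenchyme. Tmem173, which encodes STING, was at 24.7, 47.7, 68.1 and 25.3 CPM in the endothelia gate and 16.1, 0.0454, 0.0469 and 10.9 in the mesenchyme gate, a log2 difference of -3.42 ± 1.20 (adjusted p = 0.0441). Its mesenchyme level was close to 0 in numbers 2 and 3, and the call was lost without any one of the 4 numbers (adjusted p from 0.0521 to 0.202). Ddx58, the RNA helicase RIG-I, was at 48.1, 49.5, 62.2 and 81.5 CPM in the endothelia gate and 14.2, 38.96, 25.4 and 33.8 in the mesenchyme gate, a log2 difference of -1.14 ± 0.29 (adjusted p = 0.00601), and its call was lost without number 4 (adjusted p = 0.0709). Ifih1, the RNA helicase MDA5, was at 90.2, 52.5, 134 and 128 CPM in the endothelia gate and 22.2, 43.6, 44.7 and 53.5 in the mesenchyme gate, a log2 difference of -1.33 ± 0.43 (adjusted p = 0.0276), with the gates overlapping only by the endothelia value of number 2 and the mesenchyme value of number 4. The Ifih1 call was lost without number 1, 3 or 4 (adjusted p of 0.0977, 0.0722 and 0.115). Dhx58 (LGP2), a helicase that modulates the other two, was at 40.9, 18.3, 14.7 and 56.95 CPM in endothelia and 21.4, 13.8, 24.8 and 18.6 in mesenchyme, and the groups overlapped (adjusted p = 0.322).

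All 4 transcription factors were lower in mesenchyme. Irf7, which drives type I interferon production and is itself interferon-inducible, was at 122, 115, 338 and 185 CPM in the endothelia gate and 11.5, 10.1, 15.7 and 8.005 in the mesenchyme gate, a log2 difference of -3.96 ± 0.41 (adjusted p = 6.65e-07). The lowest endothelia value was several times the highest mesenchyme value. Irf1 was at 1944, 432, 907 and 833 CPM in the endothelia gate and 119, 132, 276 and 184 in the mesenchyme gate, a log2 difference of -2.60 ± 0.46 (adjusted p = 0.000271). Irf9, the DNA-binding part of the receptor-activated complex, was at 163, 121, 165 and 150.1 CPM in the endothelia gate and 29.2, 15.9, 52.5 and 41.7 in the mesenchyme gate, a log2 difference of -2.11 ± 0.39 (adjusted p = 0.000411). Stat2, another part of that complex, was at 104, 83.8, 165 and 119.8 CPM in the endothelia gate and 24.3, 12.03, 33.4 and 25.6 in the mesenchyme gate, a log2 difference of -2.32 ± 0.31 (adjusted p = 1.49e-05). No transcription factor had overlapping gates.

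Of the 14 antiviral effectors and feedback genes, 12 were lower in mesenchyme. Rsad2 encodes viperin, an enzyme that makes a chain-terminating nucleotide, and Cmpk2 encodes a nucleotide kinase that supplies its substrate. Rsad2 was at 693, 642, 920.3 and 1454 CPM in the endothelia gate and 5.69, 2.04, 4.17 and 6.29 in the mesenchyme gate, a log2 difference of -7.60 ± 0.98 (adjusted p = 8.66e-06), a 195-fold difference. Cmpk2 was at 222, 187, 275 and 274 CPM in the endothelia gate and 9.84, 0.0454, 1.64 and 11.5 in the mesenchyme gate, a log2 difference of -6.16 ± 1.18 (adjusted p = 0.000605), 71.4-fold. Ifi44, a GTPase-like interferon-induced gene, was at 369, 305, 549 and 603 CPM in the endothelia gate and 15.96, 0.136, 0.0938 and 0.245 in the mesenchyme gate, a log2 difference of -7.84 ± 1.60 (adjusted p = 0.00109). Mesenchyme was near 0 for Ifi44 in all numbers but number 1. Oas1a, an enzyme that makes the activator of RNase L, was at 22.9, 37.5, 37.1 and 37.7 CPM in the endothelia gate and 0.454, 0, 0 and 0.245 in the mesenchyme gate, a log2 difference of -7.81 ± 1.52 (adjusted p = 0.000691). Oas1a had no read in 2 of the 4 healthy mesenchyme sums.

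Bst2, Isg15, Usp18 and Oasl2 had smaller log2 differences than these 4. Bst2, which encodes tetherin, was at 274, 309, 566 and 430.2 CPM in the endothelia gate and 46.4, 32.6, 36.8 and 64.8 in the mesenchyme gate, a log2 difference of -3.10 ± 0.25 (adjusted p = 3.15e-08). Isg15, a ubiquitin-like modifier, was at 43.1, 17.7, 84.4 and 37.1 CPM in the endothelia gate and 6.43, 7.67, 7.08 and 12.00 in the mesenchyme gate, a log2 difference of -2.43 ± 0.42 (adjusted p = 0.000213). Usp18, the protease that removes Isg15 and dampens receptor signalling, was at 119.9, 114, 138 and 75.9 CPM in the endothelia gate and 30.3, 5.54, 29.5 and 47.5 in the mesenchyme gate, a log2 difference of -2.11 ± 0.63 (adjusted p = 0.0184). Neither Bst2, Isg15 nor Usp18 had overlapping gates. Oasl2, an RNA-binding relative of the Oas enzymes, was at 135, 115, 307 and 191 CPM in the endothelia gate and 31.8, 24.7, 60.5 and 25.4 in the mesenchyme gate, a log2 difference of -2.41 ± 0.37 (adjusted p = 6.36e-05). The Usp18 call was lost without number 1 or 3 (adjusted p of 0.0854 and 0.100).

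The 3 Ifit genes encode proteins that bind foreign RNA. Ifit1 was at 78.2, 46.7, 117 and 179 CPM in the endothelia gate and 9.46, 0.0454, 18.1 and 6.60 in the mesenchyme gate, a log2 difference of -3.66 ± 0.96 (adjusted p = 0.00813). Ifit2 was at 43.4, 57.2, 58.96 and 81.8 CPM in the endothelia gate and 5.85, 3.54, 19.4 and 10.7 in the mesenchyme gate, a log2 difference of -2.71 ± 0.56 (adjusted p = 0.00127). Ifit3 was at 61.8, 17.3, 116 and 136 CPM in the endothelia gate and 21.2, 6.49, 7.79 and 1.07 in the mesenchyme gate, a log2 difference of -3.15 ± 0.90 (adjusted p = 0.0137). Only Ifit3 had overlapping gates, by its endothelia value in number 2. The Ifit1 call was lost without number 1 or 4 (adjusted p of 0.0541 and 0.0911), and the Ifit3 call without number 3 or 4 (adjusted p of 0.0747 and 0.0842).

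Mx1, a dynamin-like GTPase, was read in healthy endothelia at 0.423, 3.04, 16.1 and 0.201 CPM and had no read in the 4 healthy mesenchyme sums (adjusted p = 0.0148). Pooled over the 4 sums, endothelia held 442 reads, at least 144-fold above the limit that 0 reads allows in mesenchyme (3 reads over the group, counting error only). Only 5 of 380 healthy endothelia wells had a Mx1 read, so counting error understates the uncertainty of this bound. Most of those reads came from number 3, and the call was lost without number 2, 3 or 4 (adjusted p of 0.0642, 0.0906 and 0.0661). The 2 effectors that did not pass were Mx2 and Ifi27. Mx2 was at 13.1, 0.694, 22.6 and 34.2 CPM in endothelia and 8.17, 31.3, 4.69 and 11.3 in mesenchyme (adjusted p = 0.743). Ifi27 was at 204, 177, 294 and 274 CPM in endothelia and 223, 237, 324 and 178 in mesenchyme (log2 difference -0.01 ± 0.16, adjusted p = 0.983).

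All 4 guanylate-binding proteins, interferon-induced GTPases that act on intracellular pathogens, were lower in mesenchyme. Gbp4 was at 142, 94.9, 74.2 and 137 CPM in the endothelia gate and 1.82, 0, 0.188 and 0 in the mesenchyme gate, a log2 difference of -7.82 ± 1.68 (adjusted p = 0.00167). Gbp4 reached 0 reads in 2 mesenchyme sums, so the size of that difference depends on few reads. Gbp3 was at 67.5, 33.2, 191 and 155 CPM in the endothelia gate and 14.5, 0, 0.281 and 22.8 in the mesenchyme gate, a log2 difference of -3.93 ± 1.02 (adjusted p = 0.00774). Gbp2 was at 97.6, 76.1, 160.3 and 189 CPM in the endothelia gate and 45.1, 46.9, 30.5 and 31.5 in the mesenchyme gate, a log2 difference of -1.73 ± 0.54 (adjusted p = 0.0251). Gbp7 was at 158, 109.5, 208 and 193 CPM in the endothelia gate and 53.8, 28.8, 59.3 and 44.6 in the mesenchyme gate, a log2 difference of -1.86 ± 0.34 (adjusted p = 0.000359). None of the 4 had overlapping gates. The Gbp2 call was lost without number 3 or 4 (adjusted p of 0.137 and 0.128), and the Gbp3 call without number 3 (adjusted p = 0.0560).

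All 4 antigen processing genes were lower in mesenchyme. Psmb8 and Psmb9 encode catalytic subunits of the immunoproteasome, and Tap1 and Tap2 the peptide transporter that loads MHC class I. Psmb8 was at 149, 183, 429 and 279 CPM in the endothelia gate and 22.4, 4.86, 29.03 and 32.1 in the mesenchyme gate, a log2 difference of -3.64 ± 0.36 (adjusted p = 3.46e-07). Psmb9 was at 65.4, 61.5, 139.9 and 90.4 CPM in the endothelia gate and 4.61, 5.22, 2.72 and 7.78 in the mesenchyme gate, a log2 difference of -4.04 ± 0.48 (adjusted p = 3.29e-06). Tap1 was at 91.8, 62.1, 149 and 112 CPM in the endothelia gate and 15.5, 9.53, 61.5 and 17.2 in the mesenchyme gate, a log2 difference of -2.20 ± 0.34 (adjusted p = 5.97e-05). Tap2 was at 182, 212, 246 and 222 CPM in the endothelia gate and 75.1, 64.7, 57.03 and 60.2 in the mesenchyme gate, a log2 difference of -1.74 ± 0.23 (adjusted p = 1.15e-05). Tap1 came closest to overlap, with the endothelia value of number 2 beside the mesenchyme value of number 3.

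**Figure D2:**
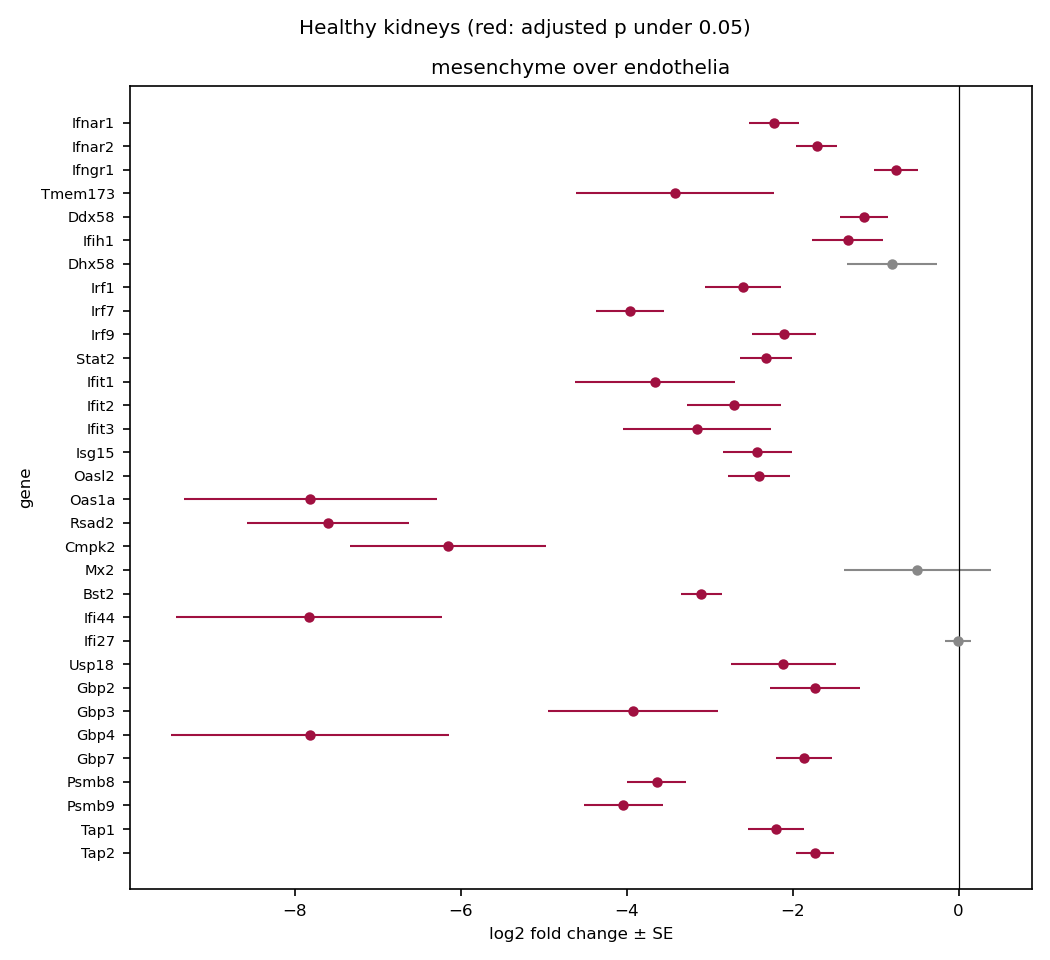
Log2 difference of healthy mesenchyme over healthy endothelia for 32 of the 33 genes, with its SE as the bar and calls in red. Mx1 is left out because its mesenchyme sums held no read. All points lie left of 0, Ifi27 at -0.01, and Rsad2, Ifi44, Oas1a and Gbp4 lie farthest left, between -7.60 and -7.84.

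Across 12 alternative analyses, 20 of the 30 calls were kept in every one and 10 were lost in at least 1. The 10 were Ddx58, Gbp2, Gbp3, Ifih1, Ifit1, Ifit3, Ifngr1, Mx1, Tmem173 and Usp18, and none of the 30 differences changed sign.

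After obstruction 3 of the 33 genes changed in the endothelia gate, the same 3 at day 2 and at day 10. Tmem173 rose, and Rsad2 and Cmpk2 fell. At day 2, 0.114% of 14026 genes tested rose and 0.0356% fell, and at day 10 0.321% rose and 0.328% fell, by the same edgeR test. The day 2 and day 10 comparisons share their healthy sums and are given side by side.

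Tmem173 was at 24.7, 47.7, 68.1 and 25.3 CPM in healthy endothelia, 177, 185, 154 and 187 at day 2 and 146, 98.4, 148 and 114 at day 10. Every injured sum lay above every healthy sum, and every day 10 sum lay below every day 2 sum. The log2 fold change was 2.18 ± 0.31 at day 2 (adjusted p = 0.0241) and 1.66 ± 0.30 at day 10 (adjusted p = 0.0384), or 4.53-fold and 3.15-fold.

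Rsad2 was at 693, 642, 920.3 and 1454 CPM in healthy endothelia, 272, 319, 317 and 389 at day 2 and 257, 446, 379 and 614 at day 10. Every injured sum lay below every healthy sum, and the days overlapped. The log2 fold change was -1.46 ± 0.18 at day 2 (adjusted p = 0.0154) and -1.15 ± 0.18 at day 10 (adjusted p = 0.0236).

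Cmpk2 was at 222, 187, 275 and 274 CPM in healthy endothelia, 68.1, 54.1, 73.1 and 82.2 at day 2 and 67.5, 105, 86.6 and 164 at day 10. Again no injured sum reached a healthy one. The log2 fold change was -1.79 ± 0.21 at day 2 (adjusted p = 0.0141) and -1.24 ± 0.21 at day 10 (adjusted p = 0.03). Rsad2 and Cmpk2 are neighbours on chromosome 12 (GRCm38.p6), Rsad2 at chr12:26442743-26456452 on the minus strand and Cmpk2 at chr12:26469117-26479837 on the plus strand. Their 5′ ends face each other across 12664 bases, and the Rsad2 window printed above lies at that end.

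These 3 genes kept their direction in all 12 alternatives, and most of their calls were lost when 1 number was left out. Without number 1, 3 or 4 none of the 3 was called at either day. Without number 1 the adjusted p values at day 2 were 0.0943 for Rsad2, 0.0943 for Cmpk2 and 0.160 for Tmem173, and without number 3 they were 0.149, 0.124 and 0.0615. Without number 4 they were 0.256, 0.218 and 0.350. At day 10 the values for Rsad2, Cmpk2 and Tmem173 were 0.132, 0.156 and 0.188 without number 1, 0.152, 0.192 and 0.0847 without number 3, and 0.189, 0.188 and 0.285 without number 4. Without number 2, Tmem173 was lost at day 2 (adjusted p = 0.0814), and Tmem173 and Cmpk2 were lost at day 10 (adjusted p of 0.0567 and 0.0512). The log2 fold changes in those fits ranged from 1.95 to 2.53 for Tmem173, -1.59 to -1.31 for Rsad2 and -1.83 to -1.74 for Cmpk2 at day 2. Summed tubule marker CPM ranged from 68.9 to 2579 in healthy, 37.4 to 286 in day 2 and 3.39 to 63.6 in day 10 endothelia. Leukocyte markers ranged from 51.2 to 56.3, 6.05 to 56.8 and 37.4 to 232 CPM in the same order. The part of these markers in the endothelia values, here and below, was not tested.

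**Figure D3:**
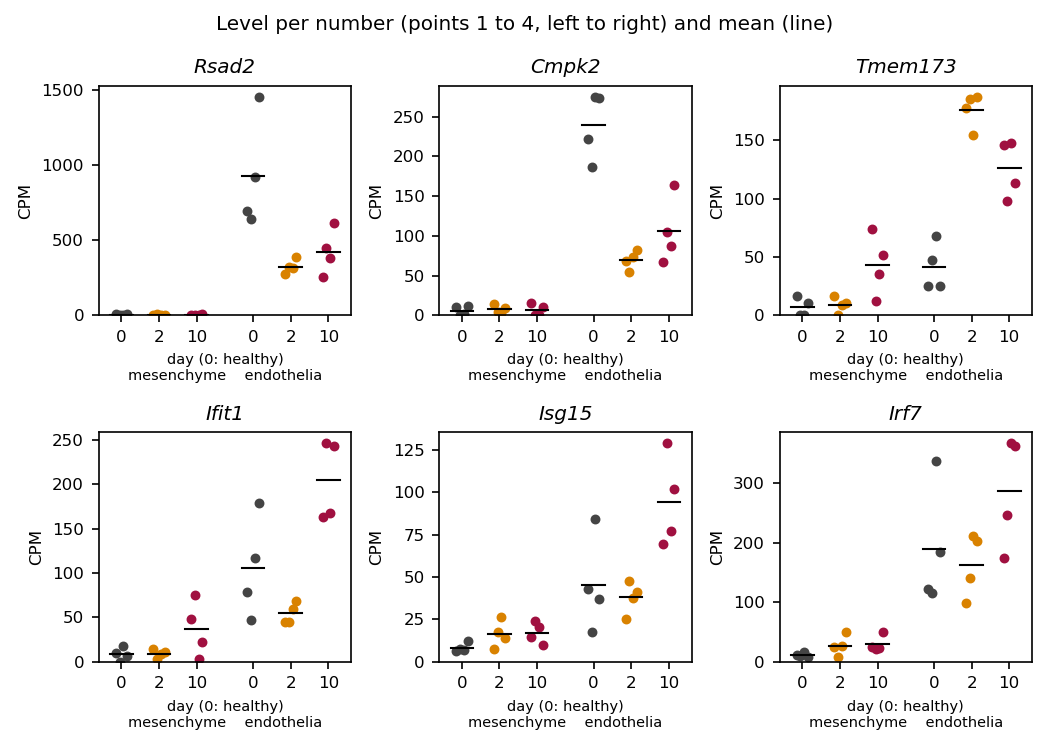
Levels in CPM of Rsad2, Cmpk2, Tmem173, Ifit1, Isg15 and Irf7 by gate and day, with 1 point per number (1 to 4 from left to right), the mean as a line, and day 0 for healthy. Rsad2 and Cmpk2 fall and Tmem173 rises between healthy and injured endothelia with no overlap, while Ifit1, Isg15 and Irf7 reach their highest means in day 10 endothelia.

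**Figure D4:**
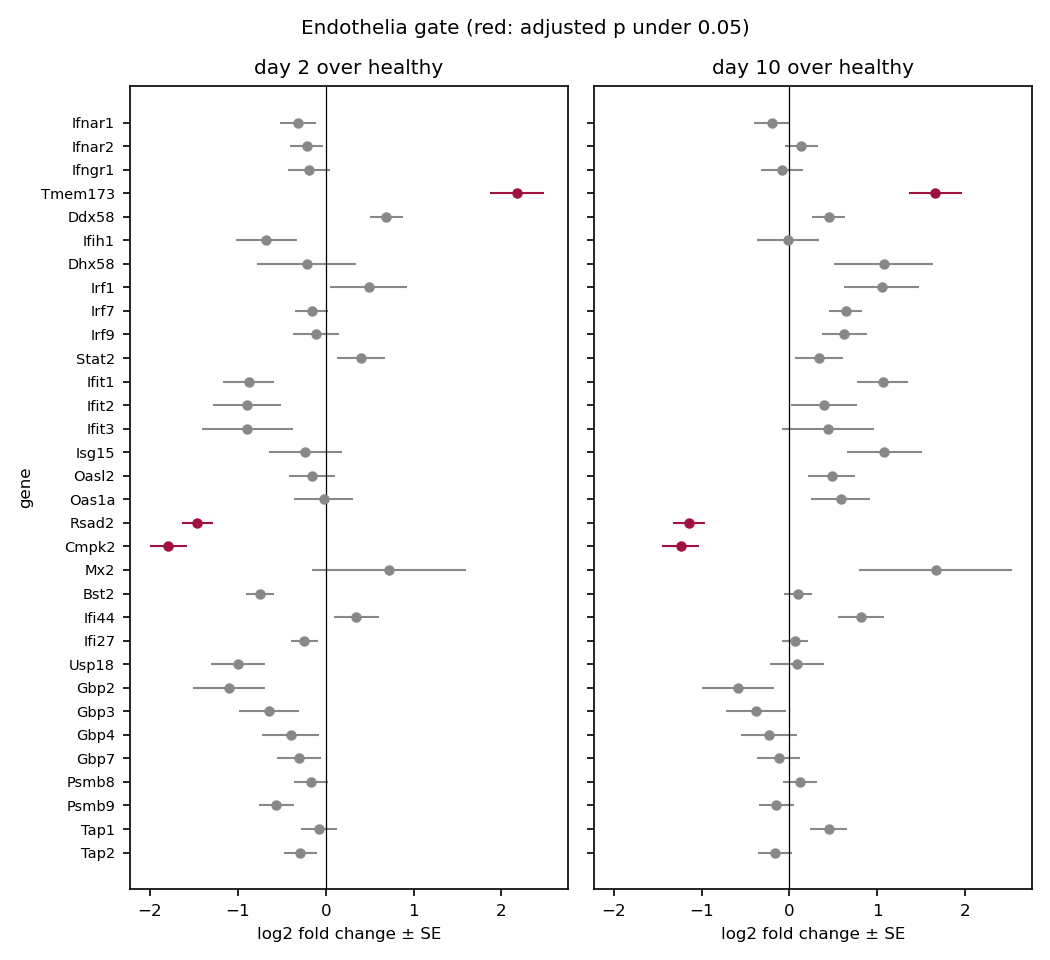
Log2 fold change over healthy in the endothelia gate at day 2 (left) and day 10 (right) for 32 of the 33 genes, with its SE as the bar and calls in red. Mx1 is left out because its SE exceeds the axis. Tmem173 lies right of 0 and Rsad2 and Cmpk2 left of 0 on both days.

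In single wells both the share of wells with reads and the level in those wells differed for Rsad2 and Cmpk2. Of endothelia wells thinned to 100000 reads, 68.4% of healthy, 43.4% of day 2 and 58.1% of day 10 wells had a Rsad2 read. Without thinning the shares were 72.6%, 47.01% and 66.4%, and in mesenchyme they were 6.04%, 4.64% and 9.84%. Among endothelia wells at 10 CPM or more, the median Rsad2 level was 929 CPM in healthy, 487 in day 2 and 467 in day 10 wells. The day 10 share lay between the other shares, while the day 10 median per positive well was as low as that of day 2.

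For Cmpk2 the thinned shares were 36.5%, 19.05% and 30.4% (unthinned 40.00%, 19.6% and 32.8%). Its median in wells at 10 CPM or more was 468, 335 and 255 CPM. For Tmem173 the thinned shares were 10.4%, 35.01% and 29.9% (unthinned 12.4%, 36.96% and 35.96%), with medians of 305, 452 and 328 CPM in wells at 10 CPM or more. For Tmem173 the share of wells differed more than the median did. Wells are not replicates, and these shares carry no test.

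Endothelia wells with Cmpk2 had Rsad2 more often than other wells did, while most wells with Rsad2 lacked Cmpk2. In healthy endothelia, 79.1% of the 134 wells with Cmpk2 at 10 CPM or more also had Rsad2 at that level, against 56.1% of the other wells. At day 2 these shares were 55.4% of 65 wells and 37.6%, and at day 10 76.4% of 110 wells and 46.5%. These shares pool the wells of all numbers, are not thinned and carry no test. The part of read depth or of the kind of endothelial cell in them was not tested.

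The endothelia wells were also split by Plvap, which encodes the diaphragm protein of fenestrated capillaries, at 10 CPM. The split was chosen after its values were seen, rests on a marker from the same wells, and is given as a description. The share of all genes without overlap within these classes of wells was not computed. Plvap wells numbered 141 of 380 in healthy, 150 of 368 in day 2 and 115 of 381 in day 10 endothelia. Rsad2 was at 1349, 1013, 1567 and 2327 CPM (unscaled) in healthy Plvap wells, 608, 565, 358 and 598 at day 2 and 278, 676, 489.7 and 935 at day 10. In the other wells it was at 483, 484, 309 and 626 in healthy, 119.7, 248, 280.2 and 163 at day 2 and 235, 335, 324 and 364 at day 10. Rsad2 was higher in Plvap wells in every number of every condition, and within Plvap wells no injured sum reached a healthy one. In the other wells day 10 overlapped healthy.

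In Plvap wells Cmpk2 was at 248, 415, 402 and 338 CPM in healthy, 138, 49.8, 93.9 and 95.9 at day 2 and 31.5, 144, 54.5 and 185 at day 10, and no injured sum reached a healthy one. In the other wells it was at 199, 94.7, 151 and 209 in healthy, 36.01, 47.7, 53.4 and 66.9 at day 2 and 77.3, 83.7, 96.4 and 134 at day 10, where day 10 overlapped healthy. At day 10 the Plvap wells were lower than the other wells in numbers 1 and 3, unlike for Rsad2. Tmem173 means were higher at both days in both classes of wells. They were 43.1, 259 and 207 CPM in Plvap wells and 41.3, 127 and 87.8 CPM in the other wells.

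Ifit1 had another distribution over these wells. In wells without Plvap it was at 49.7, 24.7, 48.5 and 66.5 CPM in healthy, 23.9, 35.3, 21.9 and 8.84 at day 2 and 191, 273, 129.9 and 187 at day 10, where every day 10 sum lay above every healthy sum. In Plvap wells it was at 172, 101, 189.6 and 298 CPM in healthy, 89.2, 79.3, 97.6 and 124 at day 2 and 65.1, 87.00, 248 and 296 at day 10, with healthy and day 10 overlapping. Irf7 means in wells without Plvap were 96.97, 103 and 274 CPM, and in Plvap wells 329, 241 and 262 CPM.

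The other 30 genes were not called in injured endothelia. At an unadjusted p under 0.05, 10 of the 33 genes stood at day 2 and 10 at day 10, against 8.52% and 10.9% of all genes. DESeq2 called 5 genes at day 2 (Bst2 and Ddx58 beside the 3) and 7 at day 10 (Ifi44, Ifit1, Irf7 and Mx1 beside the 3), against 3.18% and 5.64% of all genes. The median log2 fold change over the 33 genes was -0.24 at day 2 and 0.13 at day 10, against -0.02 and -0.02 over all genes tested. Fold changes were above 0 for 6 of the 33 genes at day 2 and 21 at day 10, against 6778 and 6841 of all 14026 genes tested.

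Among the receptors no chain passed the test, and their log2 fold changes lay between -0.31 and 0.13. Ifnar2 had the highest value, at 289.8, 292, 303 and 365 CPM at day 10 against 360.4, 207, 273 and 285 in healthy endothelia. Among the sensors, Ddx58 was at 82.7, 111, 80.3 and 114 CPM at day 2 and 66.7, 88.5, 75.1 and 102 at day 10 against 48.1, 49.5, 62.2 and 81.5 in healthy endothelia, and 2 of the 4 day 2 values lay within 2 CPM of the highest healthy value (adjusted p = 0.271 and 0.427). Ifih1 and Dhx58 overlapped between healthy and injured sums.

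The 4 transcription factors did not pass at either day, and all had positive log2 fold changes at day 10. Irf1 was at 1944, 432, 907 and 833 CPM in healthy, 1002, 2718, 1096 and 1197 at day 2 and 1805, 2931, 1831 and 2118 at day 10 (adjusted p = 0.399 at day 10). The groups overlapped through the healthy value of number 1. Irf7 was at 98.7, 140.2, 211 and 204 CPM at day 2 and 174, 246, 368 and 362 at day 10 (adjusted p = 0.196 at day 10). Irf9 was at 224, 311, 241 and 194 CPM at day 10, above all healthy sums (log2 fold change 0.62 ± 0.26, adjusted p = 0.405).

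Of the 14 effectors, 2 had a log2 fold change above 0 at day 2 and 11 at day 10, and none but Rsad2 and Cmpk2 was called. Ifit1 was at 78.2, 46.7, 117 and 179 CPM in healthy endothelia, 44.5, 45.2, 58.97 and 68.5 at day 2 and 163, 246, 167 and 243 at day 10. Its day 2 and day 10 sums did not overlap, with a log2 fold change of 1.94 ± 0.30 between the days (adjusted p = 0.103). Isg15 was at 43.1, 17.7, 84.4 and 37.1 CPM in healthy, 25.4, 47.6, 37.8 and 41.4 at day 2 and 69.4, 129, 77.1 and 102 at day 10 (adjusted p = 0.537 between the days). The days did not overlap for Isg15 either, while healthy and day 10 sums overlapped. Ifi44 was at 631, 472, 619.7 and 575 CPM at day 2 and 703, 1093, 546 and 862 at day 10 (adjusted p = 0.262 against healthy).

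Day 10 against day 2 in endothelia gave no call among the 33 genes, where 0.0143% of all genes were called. At an unadjusted p under 0.05 there were 12 of 33 (all genes 6.29%), and DESeq2 called 4 (Bst2, Ifit1, Irf7 and Usp18, all genes 2.1%). Fold changes were above 0 for 29 of 33 genes, against 7014 of all 14026 genes tested, with a median of 0.52 against 0.00 over all genes. All 4 day 10 sums lay above all 4 day 2 sums for 6 genes (Bst2, Ifit1, Ifnar2, Isg15, Oasl2 and Usp18), against 1.9% of genes tested, and below them for Tmem173, against 2%. The Ifit1 call between the days was reached in 5 alternatives, namely without a filter on low counts, with sums per plate (6 sums per group for 4 assumed animals), with thinned wells, with DESeq2 and without number 2.

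Against healthy, all 4 day 2 sums lay above for Tmem173 (2.28% of all genes) and below for Cmpk2, Rsad2 and Usp18 (2.18%). At day 10 they lay above for Irf9, Oas1a and Tmem173 (3.64%) and below for Cmpk2, Mx1 and Rsad2 (3.06%). For Mx1 the day 10 sums held 6 reads, from 4 of 381 wells. Usp18 was at 119.9, 114, 138 and 75.9 CPM in healthy and 59.00, 69.6, 30.8 and 69.7 at day 2 (adjusted p = 0.348), and at 79.5, 146, 127 and 139 at day 10. Oas1a was at 43.1, 47.4, 48.4 and 68.9 CPM at day 10 (adjusted p = 0.602).

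The guanylate-binding proteins gave no call in injured endothelia, and all 4 log2 fold changes were below 0 at both days. Gbp2 had the largest, at 97.6, 76.1, 160.3 and 189 CPM in healthy and 62.00, 17.8, 62.2 and 118 at day 2 (-1.10 ± 0.41, adjusted p = 0.473). The antigen processing genes gave no call either, with log2 fold changes between -0.56 and 0.45. Psmb9 was at 65.4, 61.5, 139.9 and 90.4 CPM in healthy and 38.9, 48.6, 86.3 and 66.99 at day 2, and the groups overlapped.

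The number of effectors seen in 1 well was highest in day 10 endothelia. At a minimum of 10 CPM, the mean number of the 14 effectors per well in numbers 1 to 4 was 4.40, 4.19, 4.73 and 4.64 in healthy, 3.64, 3.89, 4.23 and 4.27 in day 2 and 5.30, 5.97, 5.48 and 6.39 in day 10 endothelia. Each day 10 mean lay above each healthy mean, and day 2 overlapped healthy at this minimum. At a minimum of 50 CPM both day 10 and day 2 overlapped healthy. With wells thinned to 100000 reads, the means were 4.68, 4.53, 4.93 and 5.07, 3.94, 4.10, 4.36 and 4.48 and 5.57, 6.21, 5.74 and 6.50, and each day 2 mean then lay below each healthy mean, as it also did at a minimum of 1 CPM. Unthinned, at least 6 effectors reached 10 CPM in 112 of 380 healthy, 72 of 368 day 2 and 195 of 381 day 10 wells. In the same order, 10 or more did so in 21, 5 and 49 wells. Among thinned wells, at least 6 were read in 122 of 364, 80 of 357 and 197 of 375, and 10 or more in 21, 4 and 55. The median well held 353767 reads in healthy, 386019 in day 2 and 447221 in day 10 endothelia, and the thinned means above carry no such difference in depth. The median number of genes detected per well, over all genes and without thinning, was 2831.5, 3015 and 3291 in the same order. The part of this rise in the effector counts was not tested. These 14 genes include Rsad2 and Cmpk2, and the count carries no test.

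**Figure D5:**
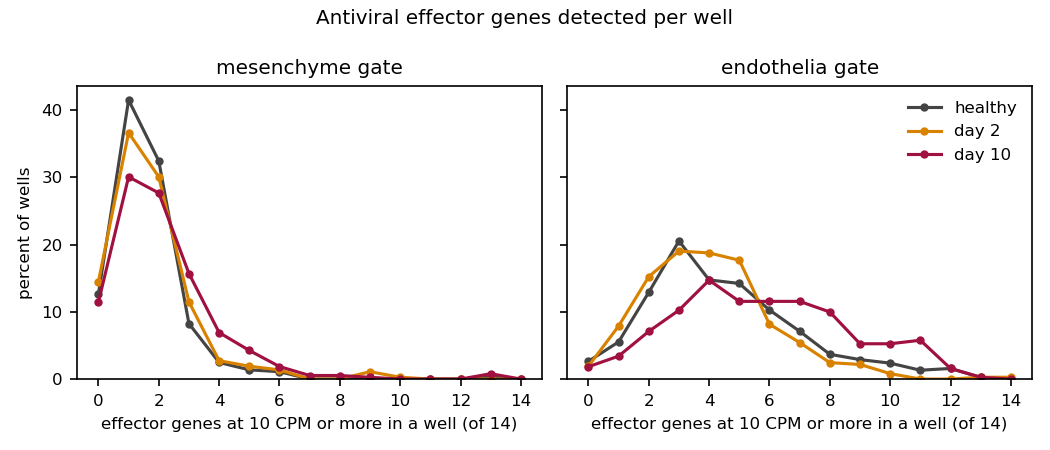
Percent of wells (y axis) by the number of the 14 antiviral effectors at 10 CPM or more in the well (x axis), for healthy, day 2 and day 10 in each gate. The day 10 endothelia curve lies to the right of the others, with a median of 6 effectors per well against 4 in healthy and day 2 wells, and the mesenchyme curves have medians of 1, 1 and 2.

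In the mesenchyme gate none of the 31 genes tested was called at day 2, at day 10 or between the days. Mx1 and Gbp4 had too few reads to be tested there. All genes gave 0.459% of calls at day 2, 1.32% at day 10 and 0.048% between the days. At an unadjusted p under 0.05, 2 of 31 stood at day 2, 10 at day 10 and 3 between the days, against 10.1%, 13.7% and 8.41% of all genes. DESeq2 called 0 at day 2, 3 at day 10 (Oasl2, Stat2 and Tmem173) and 2 between the days (Oasl2 and Tmem173), against 3.97%, 8% and 2.63% of all genes. The median log2 fold change of the 31 genes was 0.18 at day 2 and 0.79 at day 10, against 0.01 and 0.04 over all genes.

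At day 10, 23 of 31 fold changes in mesenchyme were above 0, against 7674 of all 14582 genes tested. All 4 day 10 sums lay above all healthy sums for Ifnar2, Irf7, Psmb9 and Stat2 (4.3% of all genes) and below for none (3.54%). At day 2 no gene of the module was free of overlap, against 2.93% of all genes above and 2.7% below. Between day 10 and day 2 the sums of Oasl2 and Stat2 did not overlap, against 2.79% of all genes above and 1.98% below.

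Stat2 was at 24.3, 12.03, 33.4 and 25.6 CPM in healthy mesenchyme, 46.8, 31.2, 29.2 and 42.7 at day 2 and 51.8, 55.4, 47.8 and 55.4 at day 10, with the smallest p of the transcription factors (log2 fold change 1.18 ± 0.31 at day 10, adjusted p = 0.103). Irf7 was at 11.5, 10.1, 15.7 and 8.005 CPM in healthy, 23.9, 7.06, 26.1 and 50.8 at day 2 and 24.2, 20.8, 22.4 and 50.7 at day 10 (adjusted p = 0.278). Tmem173 was at 16.1, 0.0454, 0.0469 and 10.9 CPM in healthy, 16.7, 0.0406, 8.67 and 10.1 at day 2 and 73.8, 11.99, 35.00 and 51.3 at day 10 (4.23 ± 1.33, adjusted p = 0.169). Oasl2 was at 31.8, 24.7, 60.5 and 25.4 CPM in healthy and 120.1, 45.9, 81.5 and 50.02 at day 10 (adjusted p = 0.183). Ifnar2 was at 132, 116, 112 and 121 CPM at day 10 against 111, 52.99, 110.2 and 71.4 in healthy mesenchyme, and Ifnar1 at 109.5, 81.6, 83.2 and 44.98 against 55.99, 41.8, 31.2 and 57.5 (adjusted p = 0.536 and 0.257). Psmb9 was at 11.5, 11.8, 7.82 and 9.20 CPM at day 10 against 4.61, 5.22, 2.72 and 7.78 (adjusted p = 0.612). Even the highest of these mesenchyme sums stayed below the healthy endothelia sums for Stat2, Irf7 and Psmb9.

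Mean effectors per mesenchyme well at 10 CPM were 1.71, 1.25, 1.62 and 1.60 in healthy, 1.65, 1.45, 2.000 and 1.79 in day 2 and 2.01, 1.86, 2.30 and 2.32 in day 10. At least 6 were read in 5 of 364, 10 of 366 and 15 of 376 wells. The leukocyte markers of these sums ranged from 17.8 to 215 CPM in healthy, 28.6 to 52.3 in day 2 and 61.9 to 129 in day 10 mesenchyme, in the same order the mesenchymal markers from 38781 to 40485, 31099 to 36016 and 22616 to 30331 CPM, without overlap between the conditions, and the tubule markers from 319 to 1102, 53.3 to 444 and 242 to 1976 CPM. Epcam reached 10 CPM in 5, 4 and 20 wells. The part of these markers in the mesenchyme values was not tested.

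The difference of the injury response between the gates was tested as an interaction over all 24 sums. No gene of the module was called at day 2, where 0.0683% of all genes were, or at day 10, where 0.254% were. At an unadjusted p under 0.05 there were 5 and 4 of 33, against 8.18% and 11.2% of all genes, and DESeq2 called 0 and 1 (Mx1), against 2.2% and 3.47%. For Tmem173 the mesenchyme change minus the endothelia change was -1.42 ± 1.49 at day 2 and 1.54 ± 1.48 at day 10 (adjusted p = 0.882 and 0.778). For Rsad2 it was -0.52 ± 1.11 and 0.77 ± 1.06 and for Cmpk2 2.52 ± 1.35 and 1.17 ± 1.33, with standard errors above 1, and both genes have few reads in mesenchyme. A change in endothelia that was not called in mesenchyme is therefore not shown to differ between the gates.

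Beyond the 33 genes, 143 other genes of the pathway were listed: 21 interferon ligands, 12 receptor and signalling genes, 31 sensing genes, 67 interferon-stimulated genes and 12 antigen processing genes. None of the 21 ligands had enough reads to be tested within a gate. Ifnb1, interferon beta, had reads only in day 10 mesenchyme, at 0, 0, 0.101 and 1.61 CPM, and Ifng reached 2.79 CPM in 1 healthy endothelia sum and less elsewhere. Of 118 other pathway genes tested in healthy kidneys, 63 were lower and 5 higher in mesenchyme, with a median log2 difference of -1.55. Of all genes tested, 12.7% were lower and 11.3% higher, with a median of -0.05. B2m, the light chain of MHC class I, was at 587, 454, 739 and 693 CPM in healthy mesenchyme and 5342, 5910.3, 6454 and 6628 in healthy endothelia (-3.32 ± 0.19, adjusted p = 3.57e-10). Ly6e (-5.95 ± 0.61), Trim25 (-2.56 ± 0.24), which activates RIG-I, and the interferon-induced Sp100 (-3.24 ± 0.36) were also lower. Ifitm1, a membrane protein that limits viral entry, went the other way and was higher in mesenchyme (4.42 ± 0.52, adjusted p = 3.31e-06).

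In injury, 2 of 111 other pathway genes rose in mesenchyme at day 2 and 4 at day 10, 1 of 113 rose in endothelia at each day, and none fell. Of all genes, 0.329% and 0.665% rose in mesenchyme, and the endothelia shares are given above. Stat3, which carries signals of the interleukin-6 family and is itself interferon-inducible, was at 199, 225, 157 and 167 CPM in healthy mesenchyme, 528, 574, 634 and 621 at day 2 and 419, 589, 431 and 387 at day 10. It rose by 1.67 ± 0.14 and 1.27 ± 0.14 (adjusted p = 0.00303 and 0.00331), with no overlap between healthy and injured sums. In endothelia Stat3 was at 242, 263, 169.6 and 238 CPM in healthy, 490.1, 588, 477 and 483 at day 2 and 329.9, 341, 282 and 334 at day 10, and rose at day 2 (1.17 ± 0.13, adjusted p = 0.0141). The endothelial call was lost without number 1, 3 or 4 (adjusted p of 0.0943, 0.135 and 0.218).

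Ifitm3, a relative of Ifitm1, was at 469, 406, 495 and 458 CPM in healthy mesenchyme, 922, 964, 1275 and 1165 at day 2 and 1241, 844, 1064 and 746 at day 10. It rose by 1.24 ± 0.15 and 1.07 ± 0.15 (adjusted p = 0.00486 and 0.00909), and both calls were lost without number 3 (adjusted p = 0.0758 and 0.0814). In endothelia it was at 1187, 1312, 1751 and 1367 CPM in healthy and 2046, 1979, 2902 and 2428 at day 10 (0.71 ± 0.11, adjusted p = 0.0236), a call lost without number 1, 3 or 4 (adjusted p of 0.131, 0.177 and 0.275).

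Iigp1, an interferon-induced GTPase, was at 30.1, 5.63, 1.31 and 10.2 CPM in healthy mesenchyme, 50.4, 34.8, 4.13 and 39.03 at day 2 and 109, 162, 34.4 and 72.8 at day 10. Every day 10 sum lay above every healthy sum (3.56 ± 0.52, adjusted p = 0.0103). The call was lost without number 3 or 4 (adjusted p of 0.0770 and 0.0646), without the block on number (0.148), with wells matched to their gate by markers (0.0665) and with the stricter well filter (0.150). Ptpn2, a phosphatase that dampens JAK and STAT signalling, was at 75.3, 44.3, 30.3 and 66.8 CPM in healthy mesenchyme and 163, 90.6, 75.6 and 102 at day 10 (0.99 ± 0.19, adjusted p = 0.032), and its call was lost without any one number (adjusted p from 0.0913 to 0.185).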

How the data were processed

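Single cells of mouse kidney were profiled on 6 plates, for each of which the authors deposited raw read counts per gene and well, counts of spike-in RNA and a layout of well labels. STAR (no version) and mm10 are named in the submitters' processing notes, and the counting tool, annotation and strand setting are not given in the sources used here. Wells with at least 1000 genes and 20000 reads were summed per gate, condition and number (24 sums), and 12 control wells were left out. The layout names no mouse, so the number was assumed to mark it, and p-values measure the spread between these sums. Number 1 covers plates 1 and 2, number 2 plate 3, number 3 plate 4 and number 4 plates 5 and 6.

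The sums were filtered with filterByExpr, scaled with TMM and tested with edgeR 4.0.16 (R 4.3.3) quasi-likelihood F tests, with number as a block because same-numbered sums share plates. Deviations of same-numbered sums correlated weakly (r from 0.0061 to 0.168). p-values were adjusted by the Benjamini-Hochberg method over all genes tested, and the SE was taken as |log2 fold change| divided by √F. DESeq2 1.42.0, other filters and scalings, sums per plate (6 per group, for 4 assumed animals), thinned wells and leaving out each number were alternatives. The 33 members, the gene lists and the tests were chosen with earlier results of these data known. Values per number are given for members that passed in at least 1 of 9 comparisons and for the best of each role without one; Dhx58, Mx2 and Ifi27, which passed in none, were added after their values were seen. At most 10 other pathway genes of smallest p per gate are named. Motifs were searched in RefSeq promoter windows of GRCm38.p6.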

Additional observations from a re-analysis of the deposited data

Results flagged for a closer look

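In 14 of 195 groups of 4 sums with at least 30 reads, 1 sum stood apart from the other 3: its gap to the nearest, divided by the range of the group, exceeded Dixon's 95% critical value. For normally distributed values chance flags about 1 in 20 such groups, and the rate for these CPM, some of them near 0, was not tested. Dhx58 in day 2 mesenchyme had its highest sum at 24.95 CPM, with the nearest at 5.10 (ratio 0.932). Irf1 in day 2 endothelia had its highest sum at 2718 CPM, with the nearest at 1197 (ratio 0.886). Irf7 in day 10 mesenchyme had its highest sum at 50.7 CPM, with the nearest at 24.2 (ratio 0.887). Ifit2 in day 2 endothelia had its highest sum at 116 CPM, with the nearest at 24.1 (ratio 0.920). Ifit2 in day 10 endothelia had its highest sum at 114 CPM, with the nearest at 74.9 (ratio 0.830). Oas1a in day 2 mesenchyme had its highest sum at 1.26 CPM, with the nearest at 0 (ratio 1.00). Oas1a in healthy endothelia had its lowest sum at 22.9 CPM, with the nearest at 37.1 (ratio 0.960). Rsad2 in day 2 mesenchyme had its highest sum at 4.99 CPM, with the nearest at 0.832 (ratio 0.840). Ifi44 in healthy mesenchyme had its highest sum at 15.96 CPM, with the nearest at 0.245 (ratio 0.990). Gbp4 in healthy mesenchyme had its highest sum at 1.82 CPM, with the nearest at 0.188 (ratio 0.897). Gbp4 in day 2 mesenchyme had its highest sum at 1.28 CPM, with the nearest at 0.0811 (ratio 0.936). Gbp4 in day 10 mesenchyme had its highest sum at 10.98 CPM, with the nearest at 0 (ratio 1.00). Tap1 in healthy mesenchyme had its highest sum at 61.5 CPM, with the nearest at 17.2 (ratio 0.852). Tap2 in day 2 endothelia had its highest sum at 273 CPM, with the nearest at 157 (ratio 0.843).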

How the results depend on the processing

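In the order mesenchyme at day 2, mesenchyme at day 10, mesenchyme between the days, endothelia at day 2, endothelia at day 10, endothelia between the days, the healthy gates, the gate difference at day 2 and the gate difference at day 10, 67, 193, 7, 21, 91, 2, 3857, 11 and 41 genes were called. The counts were 99, 272, 31, 65, 167, 19, 3531, 10 and 25 without a filter on low counts; 568, 1144, 376, 438, 760, 289, 5117, 354 and 560 with DESeq2; 42, 125, 4, 12, 50, 0, 3628, 7 and 26 without the replicate block; 162, 509, 65, 122, 307, 49, 4475, 38 and 163 with sums per plate. They were 50, 168, 3, 21, 85, 2, 3886, 2 and 24 with wells matched to their gate; 55, 179, 2, 0, 8, 0, 3239, 5 and 10 with at least 3000 genes and 100000 reads per well; 132, 408, 51, 57, 158, 8, 3686, 11 and 56 with wells thinned to 20000 reads; 64, 189, 7, 21, 89, 2, 3838, 11 and 35 with DESeq2's size factors. Leaving out 1 number gave 16 to 34, 28 to 205, 0 to 5, 0 to 11, 6 to 58, 0 to 6, 2702 to 3347, 0 to 5 and 1 to 11. Of the 33 members, leaving out 1 number left 0 to 2 in endothelia at day 2, 0 to 1 in endothelia at day 10, 0 to 1 in endothelia between the days and 22 to 27 in the healthy gates. In endothelia at day 2 the members called numbered 5 with DESeq2, 2 without the replicate block (Rsad2 lost) and 0 with the stricter well filter; at day 10 they numbered 7, 1 (Rsad2 and Cmpk2 lost) and 0, with 2 in wells matched to their gate (Tmem173 lost). Between the days in endothelia, 1 was called without the filter, 4 with DESeq2, 2 with sums per plate and 1 with thinned wells. In mesenchyme DESeq2 called 3 at day 10 and 2 between the days, thinned wells gave 2 at day 10, and DESeq2 called 1 for the gate difference at day 10. No called fold change turned its direction in any alternative, and the cause of lost and gained calls was not tested. With a minimum of 1 CPM or 50 CPM the mean effectors per well were still highest in day 10 endothelia. At 50 CPM, however, day 10 overlapped healthy, with 4.43 in day 10 number 1 against 4.52 in healthy number 3. Day 2 overlapped healthy at 50 CPM too, with 3.80 in day 2 number 3 against 3.78 in healthy number 2. Few reads in mesenchyme limit Gbp4, Mx1, Oas1a, Rsad2 and Cmpk2 there. Mx1 is limited in endothelia too, with reads in 5 of 380 healthy, 2 of 368 day 2 and 4 of 381 day 10 wells. This holds for each of its calls, also those by DESeq2.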

Other observations

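Ifi44 was called in injury only by DESeq2, in day 10 endothelia. It had a read in 50.5% of healthy, 61.6% of day 2 and 75.5% of day 10 endothelia wells thinned to 100000 reads. The unthinned shares were 53.9%, 66.8% and 80.8%, and the thinned shares in mesenchyme 2.29%, 3.06% and 5.25%. For Isg15 the thinned shares in endothelia were 32.4%, 33.3% and 53.1% (unthinned 33.7%, 34.5% and 58.3%), and in mesenchyme 13.1%, 20.6% and 19.1%. Wells are not replicates, and these shares carry no test.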
